A study of Mus musculus with 4 samples.

Results

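Immune checkpoint genes were followed in mouse splenic natural killer (NK) cells, the innate lymphocytes that kill infected and malignant cells. The 10 genes were taken by symbol from the deposited expression table, where each stood on 1 row of 37305. They are Tigit, Cd96, Havcr2, Lag3, Pdcd1, Ctla4, Cd200r1 and Lilrb4, which encode inhibitory receptors, Cd274, which encodes the ligand PD-L1, and Entpd1, which encodes the ectoenzyme CD39. The cells came from C57BL/6 mice at postnatal day 56, and all of them were first cultured with IL-15 (recombinant, mouse, 50 ng/ml) for 24 hours, a cytokine that NK cells need to survive. The DKK2 group (2 libraries) was then exposed to DKK2, a secreted antagonist of the Wnt co-receptors LRP5 and LRP6, at 200 ng/ml for another 24 hours, and the control group (2 libraries) received mock treatment. No source used here says whether replicates were separate animals or cultures, and the p-values cover no more than the variation among the 4 libraries, some or all of which may be technical. Levels are in FPKM, fragments per kilobase of transcript, scaled to the mapped total, which allows genes of different length to be compared.

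Checkpoint receptors damp the killing and cytokine release of lymphocytes when they bind ligands on other cells. TIGIT and CD96 bind the poliovirus receptor CD155 in competition with the activating receptor CD226. TIM-3, the product of Havcr2, binds galectin-9 and other ligands, LAG-3 binds MHC class II, PD-1 binds PD-L1, and CTLA-4 binds CD80 and CD86 with higher affinity than the co-stimulatory receptor CD28. Several of these genes are also transcribed in T cells and myeloid cells.

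NK cell markers were present in every library, and markers of other cells differed widely between libraries. Klrb1c, the NK1.1 antigen, was at 523 and 361 FPKM in the DKK2 libraries and at 371 and 272 FPKM in control libraries. Monocyte and macrophage markers summed to 745 and 420 FPKM in DKK2 libraries, against 8.4 FPKM in control replicate 1 and 258 FPKM in control replicate 2. Neutrophil, basophil and mast cell markers summed to 3500 and 298 FPKM in DKK2 replicates 1 and 2, against 5.12 and 211 FPKM in control replicates 1 and 2. Most of the sum in DKK2 replicate 1 was S100a8 (1738 FPKM) and S100a9 (1582 FPKM), at 56.4 and 46.0 FPKM in DKK2 replicate 2. The basophil and mast cell genes Mcpt8 (98.55 and 100 FPKM), Cpa3, Fcer1a and Ms4a2 were not higher in DKK2 replicate 1 than in DKK2 replicate 2. Dendritic cell markers were low throughout, at sums of 17.7 and 12.6 FPKM in DKK2 libraries and 4.22 and 11.2 FPKM in control libraries, and regulatory T cell markers, mostly Il2ra, summed to 21 and 45.9 FPKM in DKK2 libraries and 41.9 and 52.9 FPKM in control libraries. Over 63 markers of other cell types, the lowest value was in DKK2 replicate 1 for 4, in DKK2 replicate 2 for 0, in control replicate 1 for 55 and in control replicate 2 for 1, with 3 ties. Control replicate 1 thus stood apart, and results are given with and without it where it matters. By an estimate from the steps between low values it was also the deepest library, and the others had 0.351 to 0.4 of its depth. Depth was not measured directly. In a bulk library, fewer cells of a type and less RNA per cell cannot be told apart.

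Promoter sequence is shown for the pair of genes with the largest differences between the groups, Havcr2 and Ctla4, and for Cd96 and Cd274, which hold a match to a STAT or a TCF/LEF motif. STAT factors act below the IL-15 receptor, TCF/LEF factors act in the Wnt pathway, and IRF factors act in the interferon response. Each line gives the 250 bases before the RefSeq start of the gene (build GRCm38.p6, not the build of the expression table), 5′ to 3′ on the gene's strand, with motif matches in capitals.
Havcr2, chr11:46454681-46454930, plus strand: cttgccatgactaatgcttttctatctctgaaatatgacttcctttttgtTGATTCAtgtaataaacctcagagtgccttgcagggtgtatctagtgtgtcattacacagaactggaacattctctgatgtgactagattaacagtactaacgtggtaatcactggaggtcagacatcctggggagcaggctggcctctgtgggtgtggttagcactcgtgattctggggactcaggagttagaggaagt
Ctla4, chr1:60908775-60909024, plus strand: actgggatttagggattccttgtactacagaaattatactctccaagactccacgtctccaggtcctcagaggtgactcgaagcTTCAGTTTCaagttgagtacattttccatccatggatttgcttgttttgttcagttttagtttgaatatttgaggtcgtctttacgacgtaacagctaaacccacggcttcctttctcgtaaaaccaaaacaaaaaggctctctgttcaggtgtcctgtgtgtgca
Cd96, chr16:46120249-46120498, minus strand: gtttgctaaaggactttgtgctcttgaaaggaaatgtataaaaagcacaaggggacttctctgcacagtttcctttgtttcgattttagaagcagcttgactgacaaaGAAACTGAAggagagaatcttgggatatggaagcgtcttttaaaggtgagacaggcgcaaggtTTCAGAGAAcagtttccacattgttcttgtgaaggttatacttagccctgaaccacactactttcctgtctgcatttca
Cd274, chr19:29367188-29367437, plus strand: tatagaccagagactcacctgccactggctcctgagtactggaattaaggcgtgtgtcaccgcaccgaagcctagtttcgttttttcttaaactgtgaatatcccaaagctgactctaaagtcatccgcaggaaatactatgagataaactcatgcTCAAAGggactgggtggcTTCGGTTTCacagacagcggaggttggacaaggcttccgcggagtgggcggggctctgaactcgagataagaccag
The capitals mark an AP-1 match (TGANTCA) in Havcr2, a STAT match (TTCNNNGAA) in Cd96 and, on the opposite strand, a TCF/LEF match (CTTTGA) in Cd274. They also mark an IRF match (GAAANNGAA) in Ctla4, Cd96 and Cd274, on the opposite strand in Ctla4 and Cd274, and no matches overlap. Motifs were searched on both strands in 8 promoters of 7 of the checkpoint genes, since 3 genes (Lag3, Cd200r1 and Lilrb4) were not matched in the promoter table. The T-box motif (GGTGTNA) had no match in them, and a longer IRF form, with 1 more A at its end, had 0. Of 32851 promoters, 6.75% hold the AP-1 letters, 7.02% the STAT letters, 13.8% the TCF/LEF letters, 7.13% the shorter IRF letters, 2.98% the longer IRF letters and 8.61% the T-box letters. A match describes these letters alone, and no binding was measured.

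The genes spanned a wide range of levels. Tigit was the highest, with 111 ± 44.4 FPKM (SD, n = 4 libraries), and was followed by Entpd1 (88.2 ± 10.9), Cd96 (87.4 ± 13.6) and Lilrb4 (83.9 ± 17.5), and the ranges of these neighbours overlapped. All 4 were above Cd274 (32.5 ± 18.6 FPKM) in every library. Havcr2 (20.5 ± 14.7) and Lag3 (12.7 ± 7.91) came next, with ranges that overlapped each other and that of Cd274. Pdcd1 (3.82 ± 2.42), Ctla4 (3.17 ± 2.47) and Cd200r1 (2.6 ± 1.05) were the lowest and could not be ordered beyond their spread. Lag3 was above Pdcd1 in each of the 4 libraries, although their ranges overlapped. The median of all 12275 genes tested was 13.8 FPKM, and 6 of the 10 checkpoint genes lay above it. Fragments behind the low genes were estimated from the value of 1 fragment and the longest annotated transcript, at 193 and 253 for Ctla4 in the DKK2 libraries and 68 and 59 in the controls. For Pdcd1 they came to 69 and 288 with DKK2 and 219 and 181 in the controls, and for Cd200r1 to 168 and 83 against 175 and 99.

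**Figure D1:**
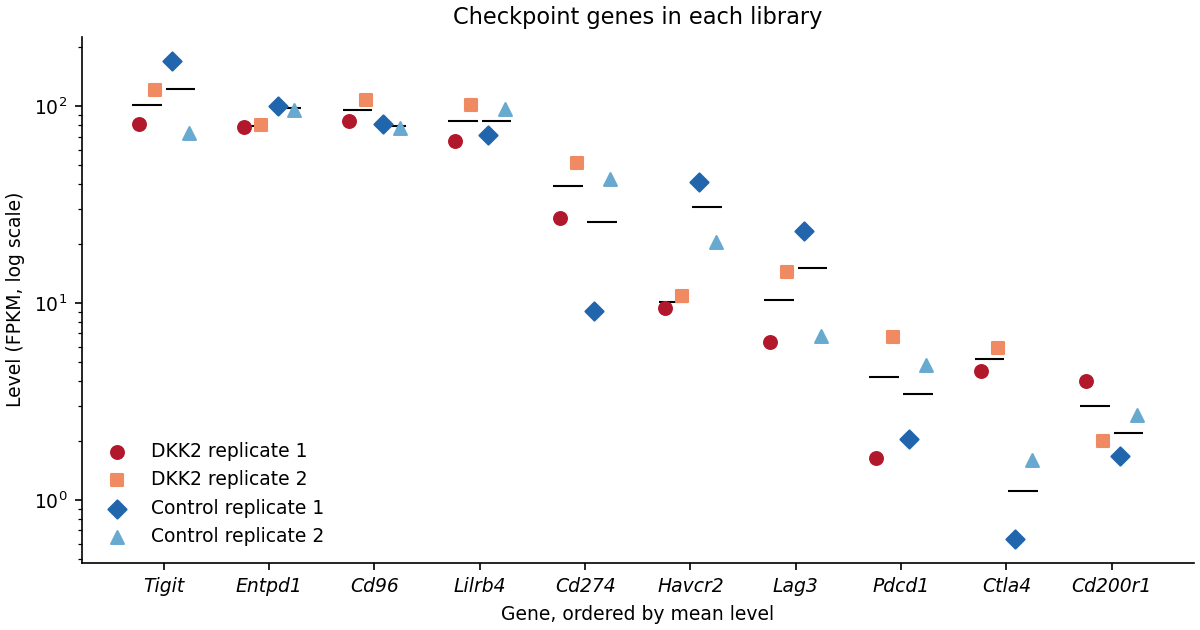
Level of each checkpoint gene (FPKM, log axis) in the 2 DKK2 libraries (red and orange) and the 2 control libraries (blue shades), with a bar at the mean of each group. The DKK2 and control libraries are separated for Havcr2, Ctla4, Entpd1 and Cd96, and interleave for the other 6 genes.

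The series' single comparison asks how DKK2 alters these transcripts, and 0 of the 10 genes passed the test. The test was limma on log2(FPKM + 1), with Benjamini-Hochberg adjustment over all 12275 genes that averaged 1 FPKM or more, and the adjusted p was 1 for each of the 10. Over all genes it called 4, or 0.0326%. At an unadjusted p under 0.05 there were 2 checkpoint genes, Ctla4 and Havcr2, where 1.84% of all genes tested reached that level. Fold changes were above 0 for 5 genes and below 0 for 5, with a median of 0.04, beside a median of -0.05 for all genes, of which 43.6% were above 0 and 56.4% below. The groups did not overlap for 4 of the 10 genes, with both DKK2 libraries above both controls for 2 (11.8% of all genes) and below for 2 (14.8%). Over both directions 26.5% of all genes had groups that did not overlap.

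For most of these genes, replicates of a group lay further apart than the groups. In 7 of 10 the larger of the gaps between replicates exceeded the difference between the group means, and Ctla4, Havcr2 and Entpd1 were the exceptions. Taking the larger of the gaps favours this outcome for any gene. The share of all genes tested that do so was not computed, so the count is not read as particular to these genes. All 10 genes were tested, none being lost to the filter on low levels. The 95% intervals of 8 included 0.

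**Figure D2:**
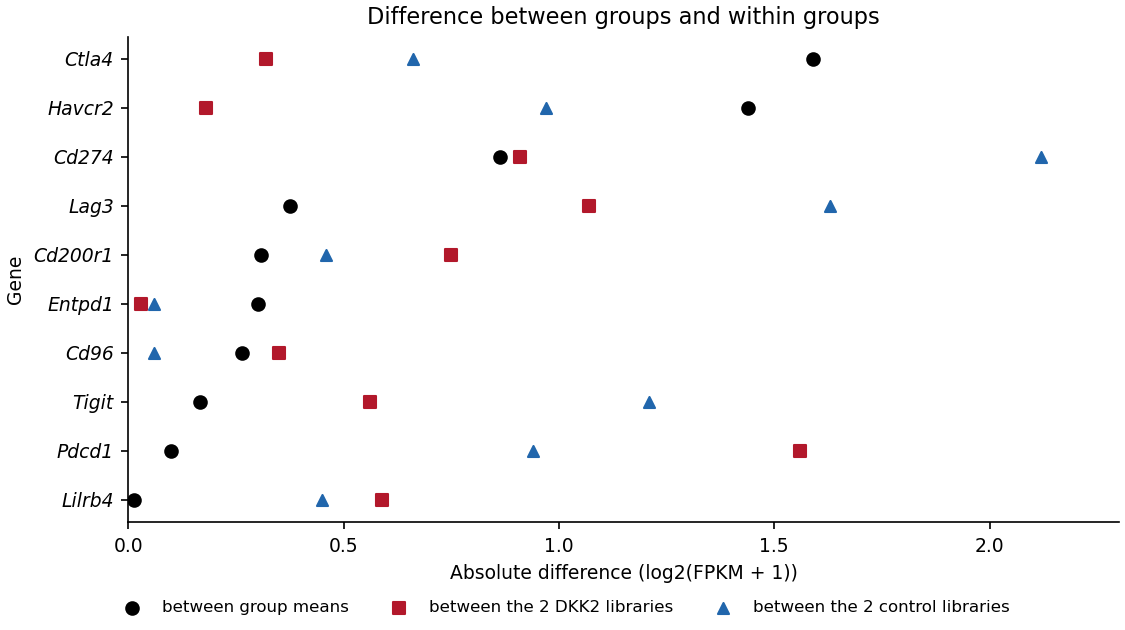
Absolute differences on the log2(FPKM + 1) scale for each checkpoint gene, between the group means (black), between the 2 DKK2 libraries (red) and between the 2 control libraries (blue). The black point lies to the right of both others for Ctla4, Havcr2 and Entpd1.

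Havcr2 was lower in both DKK2 libraries, without passing the adjusted test. It encodes TIM-3, a receptor of activated NK and T cells. Its level was 9.42 and 10.8 FPKM in DKK2 replicates 1 and 2, against 41.2 and 20.5 FPKM in control replicates 1 and 2. The DKK2 libraries were nearly alike, the controls differed from each other, and the groups did not overlap. The mean was 10.1 ± 0.977 FPKM in DKK2 libraries and 30.8 ± 14.6 FPKM in control libraries (SD, n = 2 each), a ratio of 0.328. The log2 fold change was -1.44 ± 0.39 (SE of limma's fit, 95% interval -2.45 to -0.43, unadjusted p = 0.0149, limma adjusted p = 1), and a change of at least this size in either direction was seen in 3.8% of all genes tested. Library by library DKK2 replicates 1 and 2 differed from control replicate 1 by -2.02 and -1.84 and from control replicate 2 by -1.04 and -0.86, and the controls differed from each other by -0.97 (replicate 2 minus replicate 1). Without control replicate 1 the difference was -0.95 (limma adjusted p = 1). Of 9 NK cell markers 7 were higher and 2 lower in the fit (median 0.12). Their sum, most of which is granzyme B (Gzmb), was 10500 and 8960 FPKM in DKK2 libraries and 15100 and 12700 FPKM in control libraries. The part of these transcripts in the Havcr2 difference was not tested. Of the genes in the other lists, Nr4a3, a transcription factor induced by receptor signalling, had the profile nearest to that of Havcr2 over the 4 libraries. Both its DKK2 libraries (8.51 and 10.4 FPKM) lay below both controls (26.5 and 13.8 FPKM), which largely follows from that choice. The related Nr4a1 and Nr4a2 were lowest in control replicate 2. The next nearest gene, Cd160, had groups that overlapped, at 15.95 and 17.3 FPKM in DKK2 libraries and 47.9 and 16.3 FPKM in control libraries.

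Ctla4 was higher in both DKK2 libraries, at low levels and again without passing the adjusted test. Its level was 4.53 and 5.91 FPKM in DKK2 libraries, against 0.633 and 1.59 FPKM in control libraries. Both DKK2 libraries lay above both controls. The mean was 5.22 ± 0.975 FPKM in DKK2 libraries and 1.11 ± 0.673 FPKM in control libraries (SD, n = 2 each), a ratio of 4.71. The log2 fold change was 1.59 ± 0.39 (95% interval 0.59 to 2.59, unadjusted p = 0.00969, limma adjusted p = 1), a size that 3.14% of all genes tested reached in either direction. Against control replicate 2 alone, the DKK2 libraries differed by 1.10 and 1.42 on the same scale. CTLA-4 is best known from T cells, and the summed T cell markers ranked the groups the same way, at 246 and 208 FPKM in DKK2 libraries and 66.2 and 163 FPKM in control libraries, with 8 of 9 lowest in control replicate 1. Of 7 T cell markers tested 6 were higher in the fit, and 3 (Cd3d, Cd3e and Cd3g) had both DKK2 libraries above both controls, as Ctla4 did. The groups overlapped for Cd4, Cd8a and Cd8b1. Cd28 went the other way, with both DKK2 libraries (21.22 and 28.75 FPKM) below both controls (37.45 and 32.9 FPKM). Cd3g, the largest part of the sum except in control replicate 1, was at 169 and 117 FPKM in DKK2 libraries and 23.1 and 87.3 FPKM in control libraries. Without control replicate 1, 3 of the 7 were higher and 4 lower. Cd4 was at 0.234 and 2.95 FPKM in DKK2 libraries and at 0.00566 and 1.59 FPKM in control libraries, and Foxp3, which defines regulatory T cells, was at or below 0.004 FPKM in every library. The profiles nearest to that of Ctla4 among 123 genes of the other lists were not T cell markers. They were Slamf6 (17.1 and 15.1 FPKM in DKK2 libraries, 4.90 and 11.9 FPKM in control libraries) and Nt5e (3.79 and 5.88 FPKM, against 1.90 and 2.90 FPKM). The part of T cell transcripts in the Ctla4 difference was not tested. The ligand genes of CTLA-4 went the same way, Cd80 at 4.58 and 2.72 FPKM in DKK2 libraries, against 0.257 and 2.07 FPKM in control libraries, and Cd86 at 8.73 and 8.38 FPKM in DKK2 libraries, against 0.220 and 6.35 FPKM. Neither passed limma (adjusted p = 1 for each). Both are expressed by antigen-presenting cells, and both were nearly missing from control replicate 1, as monocyte markers were.

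**Figure D3:**
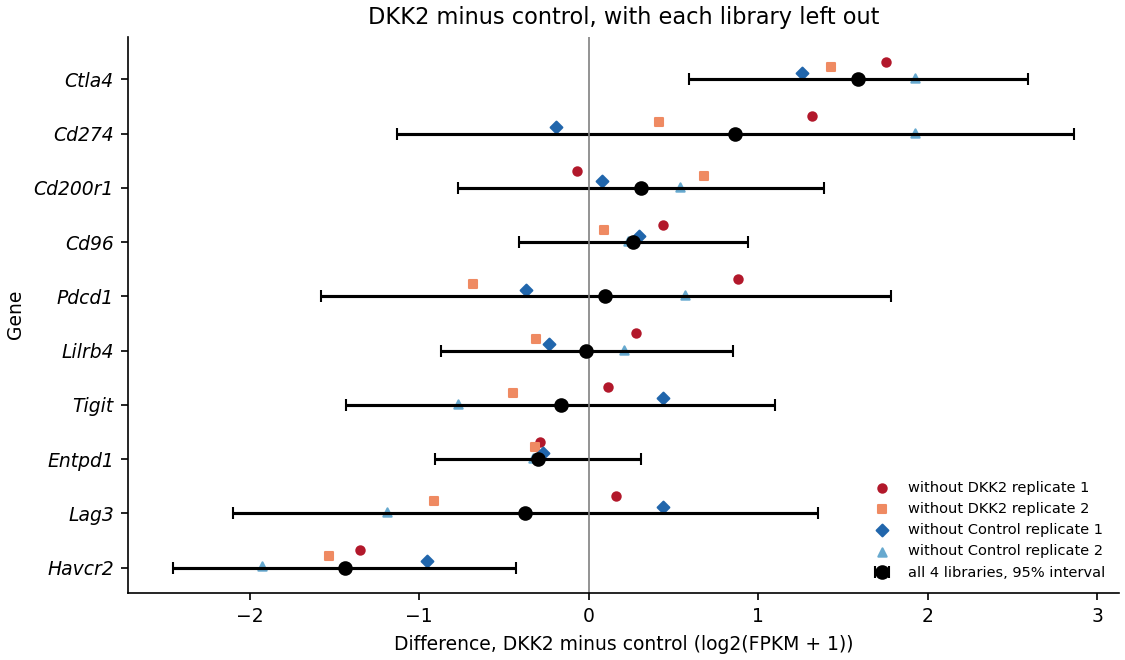
DKK2 minus control difference of each checkpoint gene on the log2(FPKM + 1) scale, with all 4 libraries (black, 95% interval of limma's fit) and with each library left out in turn (coloured points, drawn above). The interval lies to the right of 0 for Ctla4 and to the left of 0 for Havcr2, and includes 0 for the other 8 genes.

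Tigit and Cd96, the paired receptors for CD155, were both abundant, and their libraries were ordered differently. Tigit was at 81.5 and 120.9 FPKM in DKK2 libraries and at 170.2 and 72.9 FPKM in control libraries, so that the controls enclosed both DKK2 libraries. Its log2 fold change was -0.17 ± 0.49 (95% interval -1.43 to 1.10, limma adjusted p = 1), and without control replicate 1 it was 0.44. Cd96 was at 84.1 and 107 FPKM in DKK2 libraries and at 80.8 and 77.3 FPKM in control libraries. Its groups did not overlap, but DKK2 replicate 1 was only 0.06 above control replicate 1 on the log2 scale (0.26 ± 0.26, 95% interval -0.41 to 0.94, limma adjusted p = 1). The activating counterpart Cd226 was at 30.4 and 19.6 FPKM in DKK2 libraries, against 19.0 and 19.7 FPKM in control libraries, with DKK2 replicate 1 the only library to stand out. The ligand gene Pvr was at 3.20 and 7.13 FPKM in DKK2 libraries and at 4.54 and 6.66 FPKM in control libraries. The other ligand genes of this axis, Pvrl2 and Pvrl3 (nectin-2 and nectin-3), were at no more than 0.107 and 1.33 FPKM in any library. Cd226, Pvr, Pvrl2 and Pvrl3, and the ligand and partner genes set beside the other receptors, are named as known partners of the receptors.

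Lag3 had the same pair of high libraries as Tigit, control replicate 1 and DKK2 replicate 2. It was at 6.31 and 14.4 FPKM in DKK2 libraries and at 23.2 and 6.83 FPKM in control libraries. DKK2 replicate 1 had the least and control replicate 1 the most (a log2 difference of -1.72), yet control replicate 2 was close to DKK2 replicate 1. The fold change of -0.37 ± 0.67 (95% interval -2.10 to 1.35, limma adjusted p = 1) changed sign to 0.44 without control replicate 1 and to 0.16 without DKK2 replicate 1. Genes with the nearest profiles were the adenosine receptor gene Adora2a (10.3 and 23.4 FPKM in DKK2 libraries, 31.0 and 13.7 FPKM in control libraries) and the co-stimulatory receptor gene Cd27 (21.9 and 31.5 FPKM in DKK2 libraries, 49.4 and 15.7 FPKM in control libraries).

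Pdcd1 and its ligand gene Cd274 divided the libraries by replicate number and not by treatment. Pdcd1, which encodes PD-1, was at 1.63 and 6.75 FPKM in DKK2 libraries and at 2.05 and 4.83 FPKM in control libraries. Cd274 was at 26.9 and 51.2 FPKM in DKK2 libraries and at 9.06 and 42.7 FPKM in control libraries. In both genes the replicate 2 library of each group was above both replicate 1 libraries, which was also true of Lilrb4 and of 12.5% of all genes. No source used here says that equal numbers share a day or a preparation. The fold change was 0.10 ± 0.65 for Pdcd1 (95% interval -1.58 to 1.78) and 0.86 ± 0.77 for Cd274 (-1.13 to 2.86), with a limma adjusted p of 1 for each. Without control replicate 1 both were below 0, at -0.37 for Pdcd1 and -0.20 for Cd274. The summed B cell markers were also higher in the replicate 2 libraries, at 14 and 45.9 FPKM in DKK2 libraries and 0.779 and 30.3 FPKM in control libraries. So was the sum of markers of other innate lymphoid cells, at 80.7 and 141 FPKM in DKK2 libraries and 27.8 and 94.1 FPKM in control libraries. Not every gene of that list did so. Gata3 was at 9.61 and 22.7 FPKM in DKK2 libraries and 15.3 and 8.31 FPKM in control libraries. Tmem176b, its highest gene, was at 27.8 FPKM in DKK2 replicate 1 and 26.6 FPKM in control replicate 2. The nearest profiles to Pdcd1 were those of Rora, a transcription factor of innate lymphoid cells (1.55 and 4.90 FPKM in DKK2 libraries, 1.51 and 4.12 FPKM in control libraries), and Cd4. The profile nearest to that of Cd274 was that of Il23r, which marks other innate lymphoid cells. The part of these cells in Pdcd1 and Cd274 was not tested. The second PD-1 ligand gene, Pdcd1lg2, was nearly level, at 17.1 and 15.6 FPKM in DKK2 libraries and 19.3 and 14.9 FPKM in control libraries.

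Lilrb4 and Cd200r1 encode inhibitory receptors that are also typical of myeloid and mast cells. Lilrb4 was at 66.8 and 101 FPKM in DKK2 libraries and at 71.0 and 97.0 FPKM in control libraries, and its group means were nearly equal (83.9 ± 24.2 and 84.0 ± 18.4 FPKM, SD, n = 2 each). Its 95% interval of -0.87 to 0.85 on the log2 scale left room for a change in either direction. The value is uncertain because Gp49a, a neighbouring near-identical copy, can share its fragments. Gp49a was at 34.2 and 57.9 FPKM in DKK2 libraries and at 38.6 and 53.5 FPKM in control libraries, and Lilrb4 was 1.74 to 1.95 times Gp49a in each of the 4 libraries. In the GENCODE M21 annotation its exons also overlap those of 2 uncharacterised genes, and those of Cd274 overlap an antisense gene, which adds to the uncertainty of both. Its nearest profile was that of Tnfrsf9, the activation receptor 4-1BB, at 420.3 and 637 FPKM in DKK2 libraries and at 456 and 640.3 FPKM in control libraries.

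Cd200r1 was the lowest of the 10. It was at 4.03 and 1.99 FPKM in DKK2 libraries and at 1.67 and 2.68 FPKM in control libraries, and DKK2 replicate 1 alone was above both controls. The fold change was 0.31 ± 0.42 (95% interval -0.77 to 1.39, limma adjusted p = 1), and without DKK2 replicate 1 it was -0.07. Related receptor genes could share fragments with it. Among them Cd200r4 was level in all libraries, at 15.1 and 13.9 FPKM in DKK2 libraries and 14.3 and 14.1 FPKM in control libraries. Cd200r3, a receptor of basophils and mast cells, was at 6.21 and 6.54 FPKM in DKK2 libraries and at 0.0136 and 4.75 FPKM in control libraries, in parallel with the near absence of those cells' markers from control replicate 1. The ligand gene Cd200 was at 7.51 and 10.8 FPKM in DKK2 libraries, against 0.104 and 5.66 FPKM in control libraries.

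Entpd1 had the smallest gaps between replicates. CD39, its product, cleaves extracellular ATP and ADP to AMP, which CD73 turns into the inhibitory nucleoside adenosine. Entpd1 was at 78.1 and 79.8 FPKM in DKK2 libraries and at 99.6 and 95.4 FPKM in control libraries. The groups did not overlap, and replicates differed by 0.03 with DKK2 and by 0.06 in the controls on the log2 scale. The mean was 78.9 ± 1.21 FPKM in DKK2 libraries and 97.5 ± 2.96 FPKM in control libraries (SD, n = 2 each), a ratio of 0.809, and the difference stayed between -0.33 and -0.27 with any library left out. The fold change was -0.30 ± 0.24 (95% interval -0.91 to 0.31, limma adjusted p = 1). The SE combines the spread of Entpd1 itself with that of genes of its level, and is wider than the spread of Entpd1 alone would give. Nt5e, which encodes CD73, went the other way, at 3.79 and 5.88 FPKM in DKK2 libraries and 1.90 and 2.90 FPKM in control libraries (0.77 ± 0.36, limma adjusted p = 1).

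**Figure D4:**
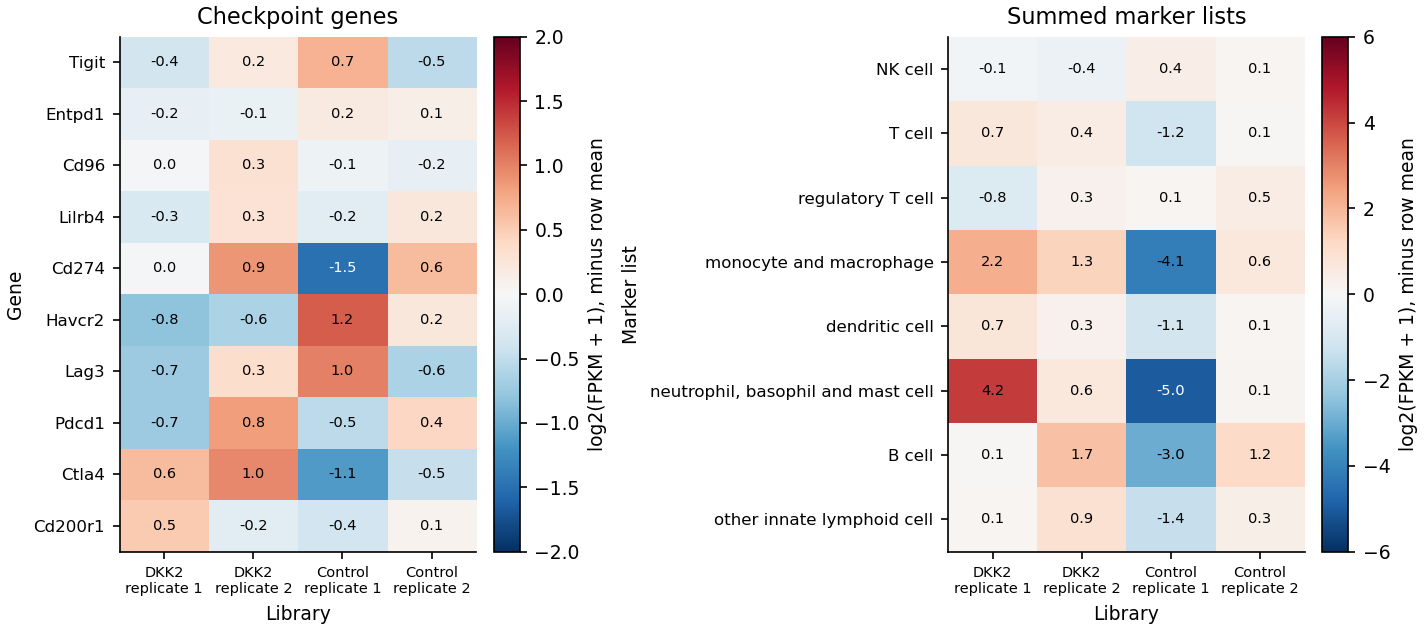
Profiles over the 4 libraries, as log2(FPKM + 1) minus the mean of each row, for the checkpoint genes (left) and for the summed FPKM of each marker list (right, wider colour scale). Control replicate 1 is highest for Havcr2, Lag3, Tigit and Entpd1 and lowest for Cd274, Ctla4 and Cd200r1, and is lowest for every list of other cells except regulatory T cells.

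Control replicate 1, the library with the fewest transcripts of other cells, was the highest of the 4 for 4 checkpoint genes (Havcr2, Lag3, Tigit and Entpd1), as for 31.6% of all genes. It was the lowest for 3 (Cd274, Ctla4 and Cd200r1), as for 17.9% of all genes. Summed over the 10 genes, the level was 363 FPKM in DKK2 replicate 1 and 500 FPKM in DKK2 replicate 2, against 499 FPKM in control replicate 1 and 422 FPKM in control replicate 2.

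Genes around the checkpoint receptors were described by lists, each also without control replicate 1, and 0 members of the 6 pathway lists passed limma after adjustment, and 0 had an unadjusted p under 0.05. Without control replicate 1, control replicate 2 was the only control, and 6214 of all 12275 genes tested were higher and 6009 lower. Of 18 checkpoint ligands 12 averaged 1 FPKM or more, and of these 8 were higher and 4 lower, with a median of 0.14 (10 and 2 without control replicate 1). Cd47, the ligand of SIRP-alpha that signals against phagocytosis, was the highest of them, at 934 and 545 FPKM in DKK2 libraries and 500 and 616 FPKM in control libraries. Of 16 other inhibitory receptors 12 were tested, 9 higher and 3 lower, with a median of 0.29 (12 and 0 without that library). The maturation receptor gene Klrg1 was at 176 and 133 FPKM in DKK2 libraries and 47.0 and 117 FPKM in control libraries (1.03 ± 0.49), with both DKK2 libraries above both controls. The 12 activating and co-stimulatory partners divided into 5 higher and 7 lower (median -0.07), which without that library became 7 and 5 (median 0.17), and Cd7, a lymphocyte surface receptor gene, was at 86.9 and 62.9 FPKM in DKK2 libraries, against 44.5 and 12.0 FPKM in control libraries.

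The list of signal transducers set beside the inhibitory receptors is not confined to genes that inhibit, and holds adaptors such as Sh2d1a. Of its genes 10 of 13 were lower, with a median of -0.22, beside 56.4% of all genes that were lower. Without control replicate 1 the count was 6 of 13, with a median of 0.01, beside 49% of all genes. The list summed to 957 and 1110 FPKM in DKK2 replicates 1 and 2, against 1450 and 899 FPKM in control replicates 1 and 2. Dok2, an adaptor that restrains Ras signalling, was at 178 and 204 FPKM in DKK2 libraries and 412 and 196 FPKM in control libraries. Ptpn6, the phosphatase SHP-1 recruited by many inhibitory receptors, was at 155 and 229 FPKM in DKK2 libraries and 280 and 139 FPKM in control libraries, in the same order as Tigit, and its profile was the nearest to that of Tigit among 123 genes of the other lists. Sh2d1a, the adaptor SAP, was at 216 and 111 FPKM in DKK2 libraries and 102 and 89.4 FPKM in control libraries. The adenosine pathway had 4 of 9 tested genes higher and 5 lower (median -0.03), and 5 higher and 4 lower without control replicate 1. Transcription factors tied to checkpoint expression had 7 of 16 tested genes higher and 9 lower (median -0.10), which became 9 and 7 without that library (median 0.11). Irf4 was at 1.54 and 2.33 FPKM in DKK2 libraries, against 7.32 FPKM in control replicate 1 and 1.67 FPKM in control replicate 2.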

How the data were processed

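RNA of 4 libraries was measured by sequencing of strand-specific total RNA libraries, per the labels' protocols. The authors deposited FPKM values, per the file headers, in 4 columns, 1 for each library, with 0 other value columns. The build mm9 and the tools TopHat2 2.1.0, CASAVA, edgeR and Cuffdiff 2.1.0 are listed, without roles, in the submitters' processing notes. The annotation, the strand setting and the sharing of multiply mapped fragments are not given in the sources used here. FPKM values are not counts, so limma 3.58.1 in R 4.3.3 was fitted (lmFit, eBayes with a trend) to log2(FPKM + 1) of the 12275 rows with a mean of at least 1 FPKM. Fold changes are DKK2 minus control on that scale, which understates changes of low genes. Tests were two-sided at 0.05. An exact permutation test of 2 against 2 cannot go below p = 0.333. From a transcript of 1 kb, 1 fragment was worth 0.0455 and 0.0452 FPKM in DKK2 replicates 1 and 2 and 0.0181 and 0.0515 FPKM in control replicates 1 and 2, read from the most frequent steps between low values.

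The genes and the 14 other lists (6 of the pathway, 8 of markers) were chosen with earlier results of these data known. Named genes are the 10 checkpoint genes, the 2 highest and the 2 most changed tested genes of a pathway list (not all are printed), the highest of marker lists, and the nearest profiles by Euclidean distance of centred values. Nearest profiles were picked by these same values, so their likeness to a checkpoint gene is no independent result. Genes outside that rule were added after their values were seen, either as known partners of a receptor (such as Cd226, Pvr and Pdcd1lg2), as related genes (Gp49a, Cd200r3 and Cd200r4) or from the marker lists (such as Klrb1c, Cd3g, Cd4 and Foxp3). The IRF motif was shortened after the longer form had been searched. Alternatives were a pseudocount of 0.1, no filter, quantile or median scaling, a replicate block and leaving out each library, and for the lists, chosen after seeing the data, leaving out control replicate 1. The gap between the 2 controls and the gap between the 2 DKK2 libraries had a correlation of r = 0.012 across genes. Each gap rests on 2 libraries, so this cannot tell whether same-numbered libraries share a day or a preparation.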

Additional observations from a re-analysis of the deposited data

How the results depend on the processing

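No checkpoint gene passed limma under any alternative (smallest adjusted p = 0.541, without control replicate 2). The count of all genes called, 4 in the fit reported, was 0 without the filter, 8 with the replicate block and 0 to 0 with a library left out. The replicate block, which pairs libraries by number although no source used here says that they pair, called 0 checkpoint genes. The number of checkpoint genes whose groups did not overlap was 5 to 8 with a library left out, when 49.3% to 74.3% of all genes did not overlap. Their median fold change was -0.31 to 0.22 over those fits. Leaving out a library turned the sign for Lag3 (-1.19 to 0.44), Tigit (-0.77 to 0.44), Pdcd1 (-0.68 to 0.88), Cd200r1 (-0.068 to 0.68), Lilrb4 (-0.31 to 0.28) and Cd274 (-0.20 to 1.92). Lilrb4 also turned to 0.029 with quantile normalization and to 0.053 with median scaling. Havcr2 (-1.93 to -0.95), Ctla4 (1.26 to 1.92), Entpd1 (-0.33 to -0.27) and Cd96 (0.09 to 0.44) kept their sign in every fit run. The groups of these genes did not overlap, so leaving out a library could not turn their sign. Of all genes tested, 26.5% had groups that did not overlap. With a pseudocount of 0.1 the difference of Ctla4 was 2.25. With 2 libraries in each group, small differences were not detectable for any checkpoint gene, abundant ones such as Tigit included. Pdcd1, Cd200r1 and Ctla4 also rest on low fragment numbers, known only as estimates.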
